A study of Mus musculus with 2 samples.

Results

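The clustered protocadherins are cell-surface adhesion proteins encoded side by side on mouse chromosome 18, in the alpha, beta and gamma clusters. They were taken here as the protein-coding genes of GENCODE release M21 on that chromosome whose symbols begin with Pcdha, Pcdhb or Pcdhg. The rule found 57 of the 21938 protein-coding genes on chromosomes 1 to 19, X and Y: 14 alpha, 22 beta and 21 gamma genes, all on the plus strand (assembly mm10, chr18:36930184-37841873, 911.7 kb). Each gene was followed at the transcription start site (TSS) of its own variable exon, in a window reaching 500 bp to either side, and the clusters were further scanned whole with 200 kb on each side.

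In alpha and gamma, every gene has its own promoter and a large variable exon that encodes the extracellular part of the protein, and its transcript is spliced to a short set of constant exons shared by the cluster. Beta genes have a single exon each and no shared constant exons. A neuron is known to transcribe a few of the alternate genes of each array, chosen largely at random, while the C-type genes at the ends of the alpha and gamma arrays (Pcdhac1, Pcdhac2, Pcdhgc3, Pcdhgc4 and Pcdhgc5) follow other rules, and the mixture of isoforms serves self-recognition of neurites and neuronal survival. Most of the promoters are known to carry a short conserved sequence element, and the architectural protein CTCF, with cohesin, is known to join alternate promoters to distant enhancers.

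Open chromatin was measured by DNase-seq, in which nuclei are treated with the nuclease DNase I and the cut sites are sequenced. There was 1 group with 2 biological replicates: midbrain of healthy B6NCrl mice at postnatal day 0, males and females pooled, prepared with a nuclei protocol whose title names a crosslinking step. The labels trace both biosamples to the same pooled donor entry, and apart from their numbering no label says that different animals were used, so the spread between the libraries may be partly technical. With no second tissue, age or treatment there is no contrast between groups and no test; the ranges beside shares are 95% Wilson intervals and reflect counting error alone.

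The libraries stood apart in how much was called. Replicate 1 gave 228203 usable peaks of 150 bp and replicate 2 gave 122593, and the authors' whole-number signal per peak had a median of 44 and 18. No source used here defines that signal, and the libraries were not put on a common scale, so it is also given as a percentile within the library's own list (0 the weakest peak, 100 the strongest). Read totals were not given and depth is unknown. Because the tissue was measured in bulk, a site open in a few cells and a site weakly open in every cell cannot be told apart. Marker promoters were checked against the label: peaks overlapping in both libraries lay at 3 of 5 midbrain genes (Otx2, En1 and En2; Pax5 and Pax7 had none at the start used), 5 of 5 neuronal and 4 of 4 glial and progenitor genes, and at 0 of 3 microglial, 0 of 3 endothelial, 0 of 2 blood and 0 of 4 other-organ genes. In replicate 1 alone the microglial gene Csf1r had a peak of 33 and the endothelial gene Cldn5 one of 34, within the range of the members' own replicate 1 peaks; their part in the results was not tested.

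Most protocadherin promoters held a weak peak in the larger library, and a smaller share of them than of all genes held one in both. In replicate 1, 51 of 57 members had a promoter peak (89.5%, interval 78.9 to 95.1), against 63.9% of all protein-coding genes. In replicate 2, 23 of 57 did (40.4%, 28.6 to 53.3), against 57.6%. Overlapping peaks in both, the rule used here to call a promoter open, were found at 21 of 57 (36.8%, 25.5 to 49.8), against 55.9% of all genes. A peak in replicate 1 and none in replicate 2 was found at 28 members (49.1%), against 7.13% of all genes, and 0 had the reverse. The replicate 1 signals of those 28 ran from 23 to 64 with a median of 34.5, and those of the 21 open members from 16 to 134 with a median of 43, so the sets overlap.

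The strength of these peaks was low beside other promoters. In replicate 1 the members' strongest promoter peaks ran from 16 to 134 with a median of 37, the 36.5th percentile of the list, whereas promoters of all genes had a median of 114, the 95.9th percentile. In replicate 2 the 23 members with a peak ran from 3 to 64 with a median of 12 (26.03rd percentile), and all genes had 55 (93.4th). When the replicate 1 list was shortened by signal to the 122593 peaks of replicate 2, its lowest signal was 42 and 14 of 57 members (24.6%) kept a peak, against 58.9% of all genes. At similar strength, the comparison with other genes depended on the range of signal, and each range held few members. Between the members' quartiles of replicate 1 signal, 29 to 43, 7 of 27 members (25.9%) and 24.7% of 860 other genes had an overlapping peak in replicate 2. Over finer ranges, chosen after the data were seen, the shares were 4 of 15 against 13.0% up to a signal of 29, 5 of 19 against 22.9% from 30 to 39, 7 of 11 against 45.9% from 40 to 59, and 5 of 6 against 96.7% from 60 up.

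**Figure D1:**
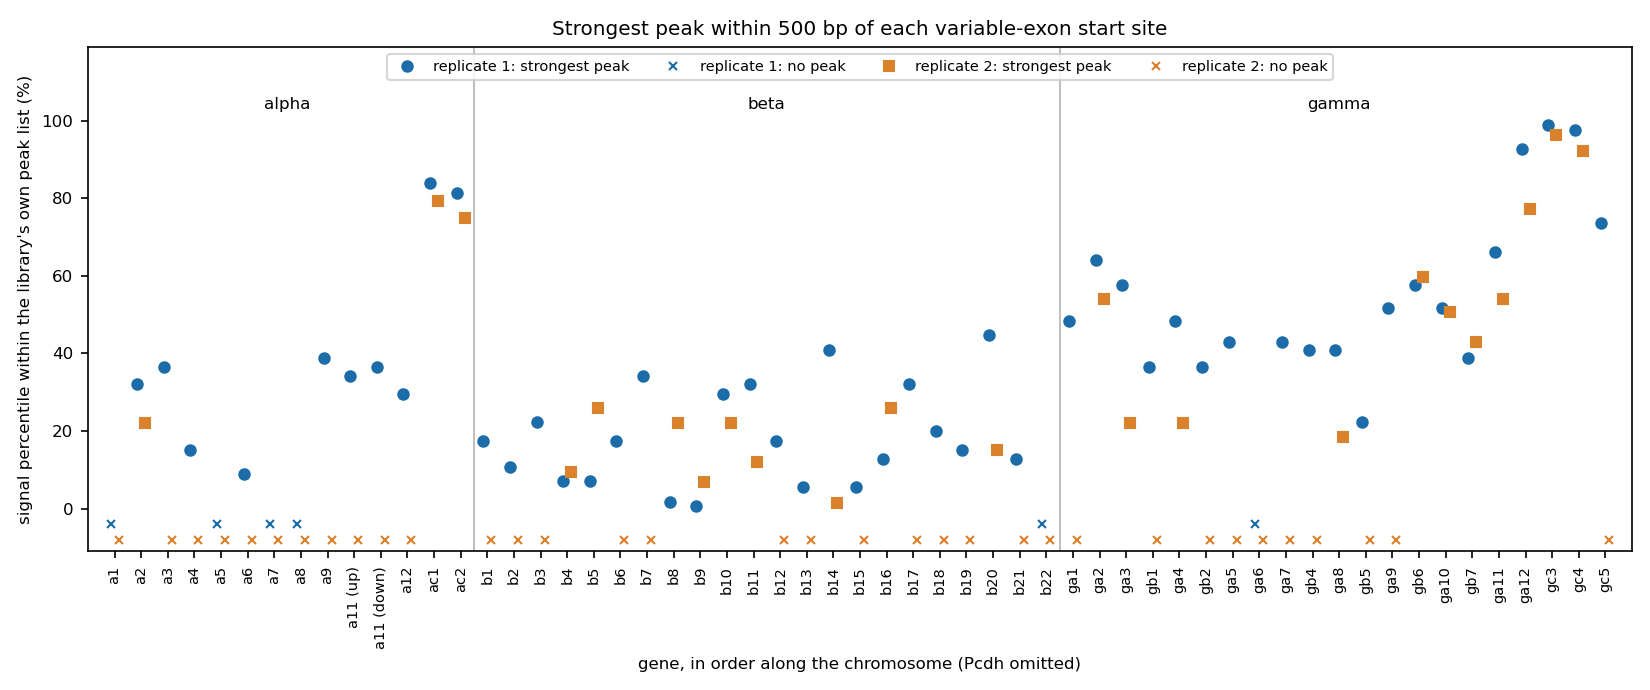
Signal percentile of the strongest peak within 500 bp of each protocadherin TSS (vertical axis, percent within the library's own list), for the 57 genes in order along chromosome 18; circles are replicate 1, squares replicate 2, and crosses below 0 mark genes with no peak in that library. Beta genes lie low, between the 0.560th and 44.8th percentile in replicate 1. The C-type genes at the ends of alpha and gamma lie higher, between the 73.6th and 98.9th, where promoters of all genes had a median at the 95.9th.

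The C-type genes had most of the strongest promoters of the family, with the alternate gene Pcdhga12 (100 and 31) below Pcdhgc3 and Pcdhgc4 and above the remaining C-type genes in replicate 1. Pcdhgc3, the gamma isoform known to promote dendrite branching of cortical neurons, had signals of 134 in replicate 1 and 64 in replicate 2, the 98.9th and 96.4th percentiles, from a start at position 37806410. Pcdhgc4, the gamma isoform known to be needed for neuronal survival, had 124 and 52 (97.5th and 92.2nd), starting at 37815079. Pcdhac1 had 79 and 33 (83.9th and 79.4th) and Pcdhac2, the alpha isoform tied to serotonergic wiring, 75 and 29 (81.5th and 74.8th), starting at 37090013 and 37143503. These 4 ranked above most peaks of each list, distal peaks included. The promoter peaks of all genes had medians of 114 and 55. Pcdhgc3 was above them in both libraries and Pcdhgc4 in replicate 1 alone, while Pcdhac1 and Pcdhac2 were below in both. Pcdhgc5, starting at 37819513, had 64 in replicate 1 (73.6th) and no peak in replicate 2. Thus 4 of 5 C-type genes were called open (80.0%, 37.6 to 96.4), an interval that holds the 55.9% of all genes. A replicate 1 peak lay at 5 of 5, against 63.9% of all genes.

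Alternate alpha genes had the lowest share open, with an interval that overlaps those of the beta and alternate gamma genes. Of the 12, only Pcdha2 had overlapping peaks (8.33%, 1.49 to 35.4), with signals of 35 and 11. A peak in replicate 1 was found at 8, all between 25 and 38. The other 7 had a peak in replicate 1 alone: Pcdha6 (25) was the weakest and Pcdha9 (38) the strongest, with Pcdha4 at 28, Pcdha12 at 34, Pcdha3 at 37 and the records named Pcdha11 at 36 and 37. GENCODE gives the symbol Pcdha11 to a pair of records, ENSMUSG00000007440.10 starting at 37005203 and ENSMUSG00000102206.5 starting at 37010752, which are counted as separate genes here. No peak of either library lay at Pcdha1, Pcdha5, Pcdha7 or Pcdha8. With the C-type pair the alpha cluster had 3 of 14 genes open (21.4%, 7.57 to 47.6) and 10 of 14 in replicate 1 (71.4%).

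Beta promoters were found almost throughout replicate 1, and all of them were weak. A peak lay at 21 of 22 beta genes (95.5%), with signals of 16 to 41 and a median of 29, the 17.5th percentile. Overlapping peaks in both libraries were found at 7 of 22 (31.8%, 16.4 to 52.7), namely Pcdhb5 (24 and 12), Pcdhb8 (19 and 11), Pcdhb9 (16 and 6), Pcdhb10 (34 and 11), Pcdhb11 (35 and 8), Pcdhb16 (27 and 12) and Pcdhb20 (41 and 9). By the mean of both percentiles Pcdhb20 was the strongest of these and Pcdhb9 the weakest. At Pcdhb4 (24 and 7) and Pcdhb14 (39 and 3) both libraries had a peak, but the peaks did not overlap. The other 12 had a replicate 1 peak alone: Pcdhb1, Pcdhb6 and Pcdhb12 at 29, Pcdhb2 and Pcdhb21 at 26 and 27, Pcdhb3 at 31, Pcdhb7 at 36, Pcdhb13 and Pcdhb15 at 23, Pcdhb17 at 35, Pcdhb18 at 30 and Pcdhb19 at 28. Pcdhb22, the last gene of the array, had no peak in either library. With the replicate 1 list shortened to 122593 peaks, 0 of the 22 beta promoters kept a peak.

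A larger share of gamma promoters than of alpha or beta ones was open, with intervals that overlap. Overlapping peaks were found at 11 of 21 (52.4%, 32.4 to 71.7), close to the 55.9% of all genes, and 20 of 21 (95.2%) had a replicate 1 peak, with a median signal of 44. In the A subfamily 7 of 12 were open: Pcdhga2 (54 and 19), Pcdhga3 (49 and 11), Pcdhga4 (43 and 11), Pcdhga8 (39 and 10), Pcdhga10 (45 and 18), Pcdhga11 (56 and 19) and Pcdhga12 (100 and 31). In the B subfamily 2 of 6 were, Pcdhgb6 (49 and 21) and Pcdhgb7 (38 and 16). Pcdhga12 stood out among the alternate genes, at the 92.7th and 77.2nd percentiles, and Pcdhga8 was the weakest of the open gamma promoters. A replicate 1 peak alone lay at Pcdhgb5 (31), Pcdhgb1 and Pcdhgb2 (37), Pcdhgb4 (39), Pcdhga5 and Pcdhga7 (40), Pcdhga1 (43), Pcdhga9 (45) and the C-type gene Pcdhgc5. Pcdhga6 had no peak. Along the array, the stretch from Pcdhgb6 to Pcdhgc4 held 7 of the 11 open genes in unbroken order, and the gene Pcdhgb8 within that stretch, annotated as a polymorphic pseudogene and therefore no member, also had peaks of 59 and 18 in its window.

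**Figure D2:**
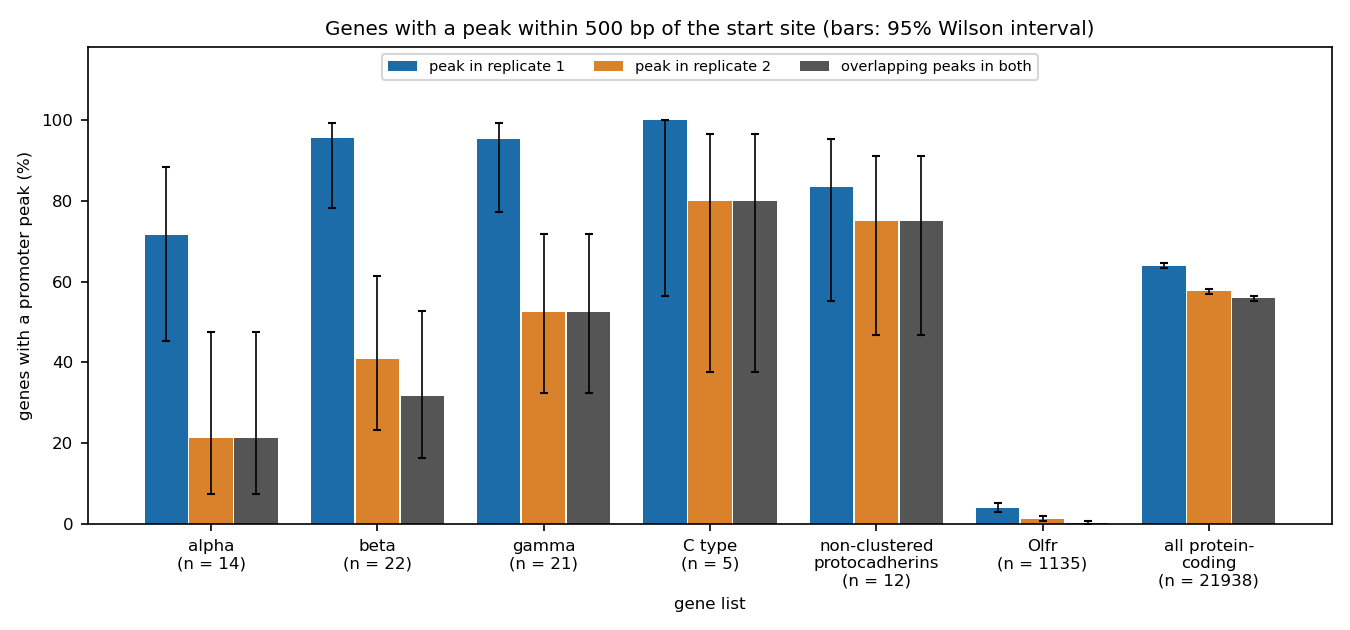
Share of genes with a peak within 500 bp of the TSS (vertical axis, percent; bars start at 0) in replicate 1, in replicate 2 and overlapping in both, for the 3 clusters, the 5 C-type genes (which are also counted in alpha and gamma), non-clustered protocadherins, olfactory receptor (Olfr) genes and all protein-coding genes; error bars are 95% Wilson intervals. The clusters are near or above the other genes in replicate 1 and drop in replicate 2, while Olfr genes are near 0 throughout.

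Other gene lists gave a frame for these shares. Olfr genes, the olfactory receptors, form another large family in tandem arrays from which a neuron picks a member, and 46 of 1135 had a replicate 1 peak (4.05%), 15 a replicate 2 peak and 4 overlapping peaks (0.352%). Non-clustered protocadherins, whose genes stand alone, were open at 9 of 12 (75%, 46.8 to 91.1), an interval that holds the 55.9% of all genes. Pcdh17 had 138 and 66, Pcdh9 136 and 75 and Pcdh10 134 and 74; Pcdh20 was the weakest at 71 and 28, Pcdh11x had 89 in replicate 1 alone, and Pcdh1 and Pcdh12 had no peak at the start used. Of 25 genes for known regulators and partners, 22 were open (88.0%, 70.0 to 95.8). Their ratio of observed to expected CpG had a median of 0.886, against 0.566 for all genes. Ctcf had 136 and 64, the cohesin subunit gene Rad21 136 and 82, Smchd1, which encodes a chromatin protein known to silence the clusters, 127 and 64, the DNA methyltransferase gene Dnmt3b 88 and 33, and Rest, the neuronal gene repressor, 61 and 34. The zinc finger gene Wiz was the weakest of these at 30 and 15, Celsr1 had 82 in replicate 1 alone, and Tet1 and Ptk2b had no peak.

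The peaks sat close to the annotated variable-exon starts. In replicate 1 the centre of the strongest peak lay a median of 20.5 bp upstream of the TSS, with quartiles of 50 and 10 bp upstream, and it was within 100 bp at 43 of 51 members (84.3%), against 60.2% of all genes with a peak, whose median was 41.5 bp upstream. In replicate 2, 16 of 23 (69.6%) lay within 100 bp, against 59.04%, with a median of 27.5 bp upstream. The 8 members with a replicate 1 centre farther off were Pcdhb1, Pcdhb13, Pcdhb6 and Pcdhb8, at 127.5, 129.5, 135.5 and 160.5 bp upstream, and Pcdhb17, Pcdhgc4, Pcdhac2 and Pcdhga12, at 175.5, 271.5, 287.5 and 350.5 bp downstream. At Pcdhga12 and Pcdhgc4 replicate 2 placed its peak in the same downstream stretch, at 330.5 and 291.5 bp, and at Pcdhb8 in the same upstream stretch, at 180.5 bp. These distances depend on the start used. Measured to any annotated transcript start, the regions with the Pcdhb8 and Pcdhgc4 peaks lay at 0 bp. The region of Pcdhb6 lay 36 bp and that of Pcdhga12 63 bp from such a start.

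**Figure D3:**
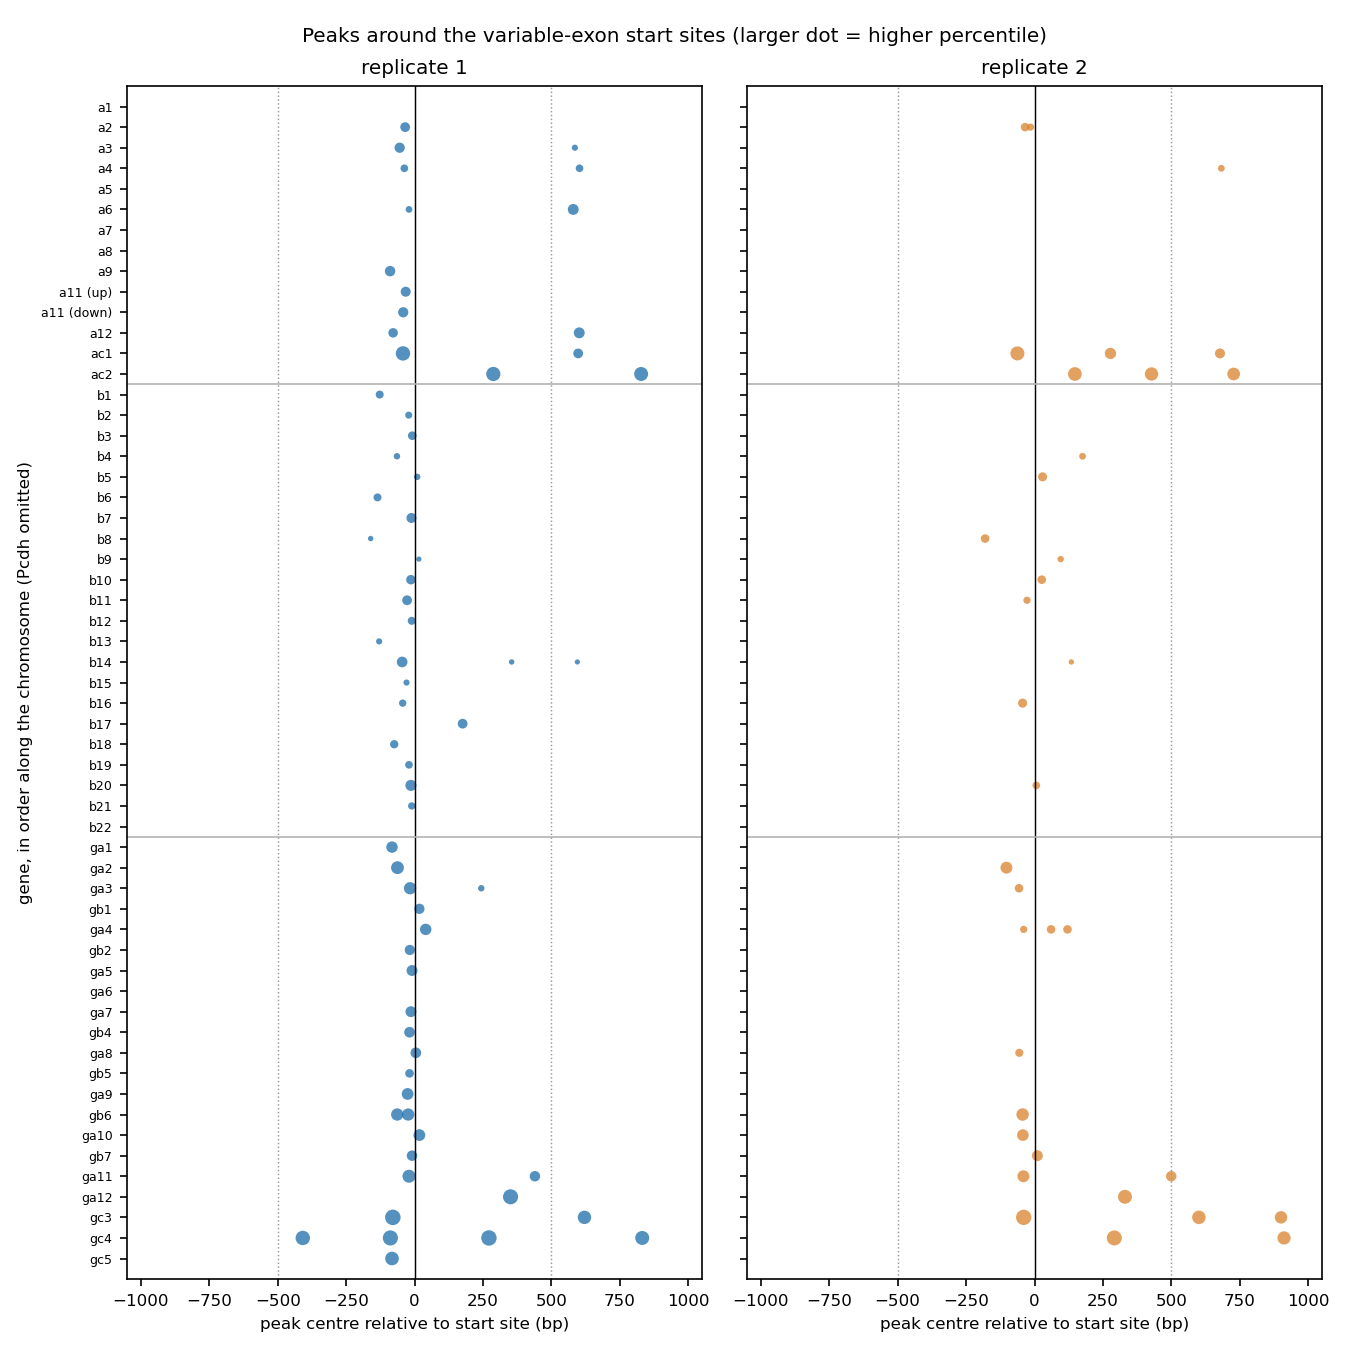
Position of every peak centred within 1000 bp of each TSS (horizontal axis, bp, negative upstream; dotted lines at 500 bp), with genes in chromosomal order and replicate 1 and replicate 2 in separate panels; larger dots have a higher percentile. Replicate 1 peaks line up just upstream of the start in all 3 clusters, with a second set near 600 bp downstream in several alpha genes.

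Sequence motifs were searched because the family is known for a shared promoter element and for CTCF sites. The letters CGCT, the core of that conserved element, were looked for within 150 bp upstream of each TSS on the strand of the gene, a search chosen after the data were seen. They were present at 44 of 57 members (77.2%; 10 alpha, 16 beta and 18 gamma genes), against 35.6% of all protein-coding genes. On the opposite strand the shares were 33.3% and 36.3%. The 55 matches lay 18.5 to 126.5 bp upstream, with a median of 59.5 bp. Within gamma, 17 of 18 alternate genes had it, and among the C-type genes 2 of 5 did. The longer form TGGCGCT was found at 15 of 22 beta promoters (68.2%), at 0 alpha and 0 gamma promoters and at 1.00% of all genes, a median of 49.0 bp upstream (26 to 82).

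Presence of the element was compared with the position of the peak in each library. Of the 43 members whose replicate 1 peak was centred within 100 bp of the TSS, 41 had CGCT upstream of it (95.4%), against 51.9% of other genes with so placed a peak. Of the 8 members with a peak farther off, 0 did, against 43.8% of other genes. Peak position and element window were both measured from the same start, so the split depends on the start chosen. At Pcdhb6, Pcdhb8, Pcdhga12 and Pcdhgc4 another annotated transcript start lay nearer the region with the peak. In replicate 2 the split was less sharp: 16 of 16 members with a peak within 100 bp had CGCT upstream, against 53.9% of other genes, but so did 3 of the 7 with a peak farther off (42.9%), near the 45.6% of other genes. The off-centre peaks of replicate 1 mostly held the letters: CGCT on the gene's strand lay inside the 150 bp of the peak at 6 of the 8, all but Pcdhb13 and Pcdhgc4, and TGGCGCT at Pcdhb6, Pcdhb8 and Pcdhb17. Counted inside peaks at any position, CGCT was in 47 of 51 replicate 1 promoter peaks (92.2%), against 56.4% in other genes, and in 18 of 23 replicate 2 peaks (78.3%), against 58.1%. TGGCGCT was in 18 of the 21 beta peaks of replicate 1 (85.7%), against 2.15% of other genes, and in 4 of the 9 of replicate 2 (44.4%), against 2.18%. Beta promoters share ancestry and much of their sequence, so they are not independent examples, and a match is a description of the letters, not a bound site.

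The element was found both at promoters called open and at those not called. CGCT lay upstream of 17 of the 21 open members, 22 of the 28 with a replicate 1 peak alone and 3 of the 6 with no peak. Pcdha7, Pcdha8 and Pcdhga6 thus had the element and no peak, and Pcdha1, Pcdha5 and Pcdhb22 had neither.

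The core of the CTCF motif, a 12-base pattern with 4 free positions, was searched on both strands. It matched 2 of 57 promoter windows (3.51%, 0.968 to 11.9), those of Pcdha1 and Pcdhac2. That interval holds the 7.02% of all protein-coding genes. A form fixed at a further 2 bases matched 1 (1.75%) against 0.907%. The search allowed no mismatch, so a window without a match may still hold a CTCF site. None of the 51 replicate 1 promoter peaks contained the core (0%), against 2.22% in other genes. In the stretch 500 to 700 bp downstream of the TSS, chosen after the data were seen, the core lay at 6 of 12 alternate alpha genes (Pcdha4, Pcdha6, Pcdha7, Pcdha8, Pcdha9 and Pcdha12), on the gene's strand in each, 542.5 to 586.5 bp from the start. It was in that stretch at 0 beta and 0 gamma genes and at 1.01% of all genes.

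Peaks lay in the same stretch of several alpha exons. In replicate 1 a peak was centred there at 5 of 14 alpha genes, Pcdha3 (23), Pcdha4 (28), Pcdha6 (40), Pcdha12 (40) and Pcdhac1 (35), against 1 of 22 beta genes (Pcdhb14, 15), 1 of 21 gamma genes (Pcdhgc3, 61) and 15.7% of all genes. In replicate 2 it was found at 2 of 14 alpha genes (14.3%), Pcdha4 (7) and Pcdhac1 (14), near the 12.5% of all genes. It was also found at 1 of 21 gamma genes (Pcdhgc3, 27) and at 0 of 22 beta genes. Of the 6 genes with the core, Pcdha4, Pcdha6 and Pcdha12 had a replicate 1 exon peak. Those of Pcdha6 and Pcdha12 each lay on an annotated transcript start other than the one used here. The region with the Pcdha4 exon peak lay 133 bp from such a start. Pcdha6 had a stronger peak in the exon, 40, than at its start, 25, and Pcdha12 likewise, 40 against 34. The exon peak of Pcdha4 overlapped between the libraries although its promoter peak was in replicate 1 alone.

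Base composition differed between the clusters. The ratio of observed to expected CpG dinucleotides in the promoter window had a median of 0.686 in alpha, 0.378 in beta and 0.594 in gamma, and of 0.564 over all members, close to the 0.566 of all genes. Genes between the members' CpG quartiles (0.396 to 0.683; 5133 genes) had a replicate 1 peak at 84.7%, a replicate 2 peak at 76.4% and overlapping peaks at 73.9%. Over the 51 members with a replicate 1 peak, signal and CpG ratio had a Spearman correlation of 0.414, over genes that share a library and, within a cluster, much of their sequence. Between the libraries, Spearman's rho of the signals was 0.769 over the 23 members with a peak in each and 0.880 over 12433 other genes.

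Similar sequence among family members can leave reads without a unique place, and no source used here says how such reads were handled. The share of 31-base words in the window of 500 bp to either side that occur more than once in the genome had a median of 0.927% at the 21 open members, 2.68% at the 28 with a replicate 1 peak alone and 13.5% at the 6 with none. Within 100 bp of the TSS the median was 0 in each of these sets. The sets differ in their mix of clusters, and 4 of the 6 members with no peak were alternate alpha genes. Within 500 bp those 4 had shares of 9.89 to 22.97%. The 8 alternate alpha genes with a replicate 1 peak had 15.55 to 29.04%. The remaining members with no peak, Pcdhb22 and Pcdhga6, had 0 and 2.99%. Over the 51 members with a replicate 1 peak the Spearman correlation of that share with signal was -0.130. The part of sequence similarity in the missing peaks was not tested.

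Hotspots, the wider intervals deposited beside the peaks, gave the same picture. They overlapped between libraries at 22 of 57 promoters, against 57% of all genes; the added gene was Pcdhb14. The strongest class of hotspot, with a −log10 q of 100, lay at 15 of 57 members in replicate 1 (26.3%, against 57.0% of all genes) and at 2 of 57 in replicate 2 (3.51%, against 46.0%). In replicate 1 it lay at 10 of 21 gamma genes, 3 of 14 alpha genes and 2 of 22 beta genes.

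Across the whole locus, open sites were dense in the spans of the alpha and gamma constant exons, introns included. The beta genes had about the density of the genome. Peaks of both lists that overlapped or touched were merged into regions, and 49 regions within the clusters held a peak of each library, 5.38 per 100 kb against 2.75 in the genome. The alpha constant span had 8 such regions in 41.1 kb (19.5 per 100 kb) and the gamma constant span 3 in 19.7 kb (15.2). The span of the gamma variable exons had 18 (11.2), that of the alpha variable exons 8 (3.70) and the beta genes 7 in 259.5 kb (2.70). By midpoint, the regions in the alpha constant span lay in introns or in exons of the gene models Gm38097 and Gm10544. They did not lie in a constant exon. The beta array had 0 replicated regions over 500 bp from an annotated start: all 7 were promoters. Between beta and gamma there were 2 (1.46 per 100 kb), one of them the promoter of Taf7, a general transcription factor gene (133 and 72).

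**Figure D4:**
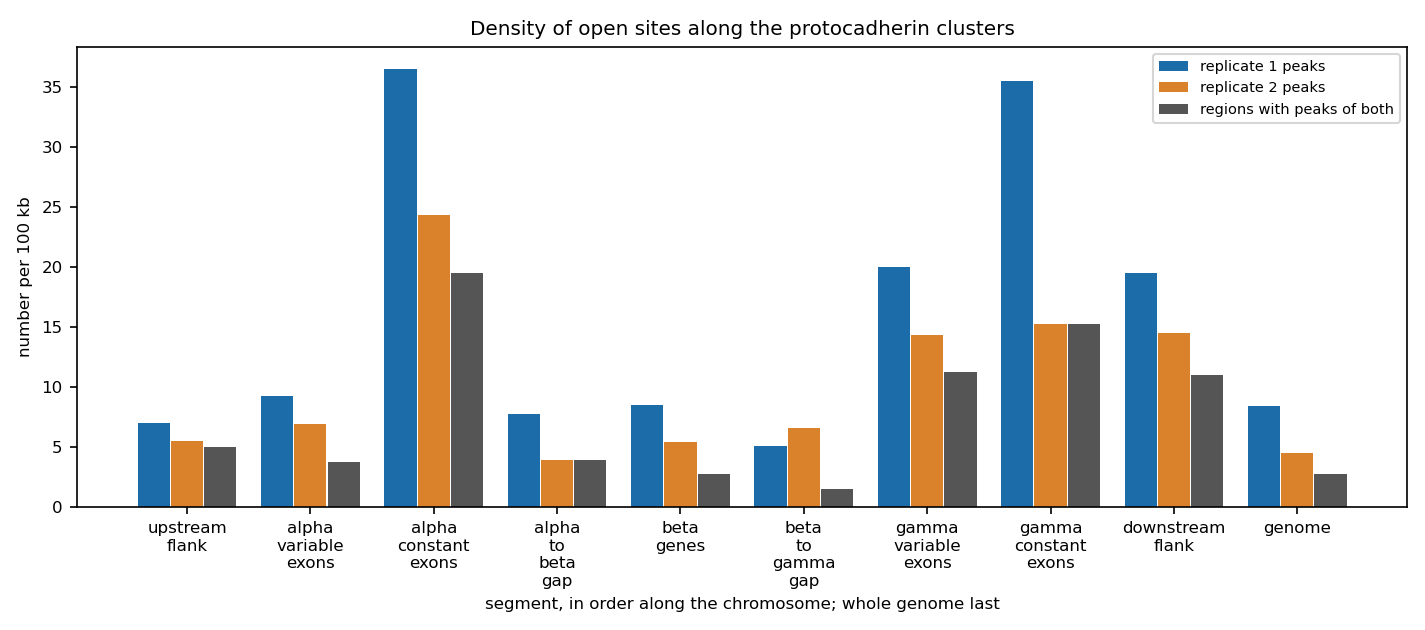
Number of peaks per 100 kb in each library, and of regions holding peaks of both, along the locus from the upstream flank to the downstream flank, with the genome last. The spans of the alpha and gamma constant exons, introns included, have the tallest bars, and the gap between beta and gamma has the fewest replicated regions.

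The strongest replicated sites away from any annotated start lay beside the arrays rather than in them. First by the mean of both percentiles was chr18:37218196-37218385 in the gap between alpha and beta, with 145 and 73 (nearest protein-coding start Pcdhb1, 46648 bp away), 30.6 kb past the end of the alpha cluster. A companion at chr18:37217336-37217565 had 95 and 50 and held a CTCF core on the minus strand, opposite to the genes. Next came chr18:37852156-37852325 (129 and 81), in an intron of Diaph1, the gene of an actin-organizing formin that borders the gamma cluster. Of the protein-coding starts used, Pcdhgc5 was nearest to that site, 32728 bp away, but another annotated transcript start lay at 1082 bp. The site was followed by chr18:37842136-37842305 (124 and 62, nearest protein-coding start Pcdhgc5 at 22708 bp), 0.348 kb past the end of the gamma cluster. Then came chr18:37880216-37880385 (132 and 57, Diaph1 at 55080 bp) and chr18:37877256-37877485 (127 and 52, Pcdhgc5 at 57858 bp), both in Diaph1 introns. Other annotated transcript starts lay nearer to these, at 11102, 17557 and 20457 bp. These 5 sites, leaving out the companion, had replicate 1 percentiles of 97.52 to 99.96, above every alternate promoter; the companion was at 91.1, below Pcdhga12. Enhancers of the alpha genes are known downstream of their constant exons, and a control region of the beta and gamma genes is known downstream of the gamma cluster; the coordinates of those elements were not used here and no match was made.

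The flank downstream of gamma held 22 replicated regions in 200 kb (11 per 100 kb), 16 of them distal, and the flank upstream of alpha held 10 (5 per 100 kb), 2 of them distal. In all, 34 replicated distal regions lay across the clusters and flanks, 10 in exons, 15 in introns and 9 in intergenic sequence, by midpoint; the gene models Gm42416, Gm37013 and Gm37388 span much of the arrays, so that the gap between alpha and beta counts as intron. Of the 34, 4 held the CTCF core, 1 on the plus and 3 on the minus strand. The share over replicated distal regions of the whole genome is not given here, so these counts do not show a trait of the locus. Inside the alpha constant region the strongest replicated site was chr18:37178396-37178765 (94 and 36), in an intron and at an annotated start of a non-member transcript.

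**Figure D5:**
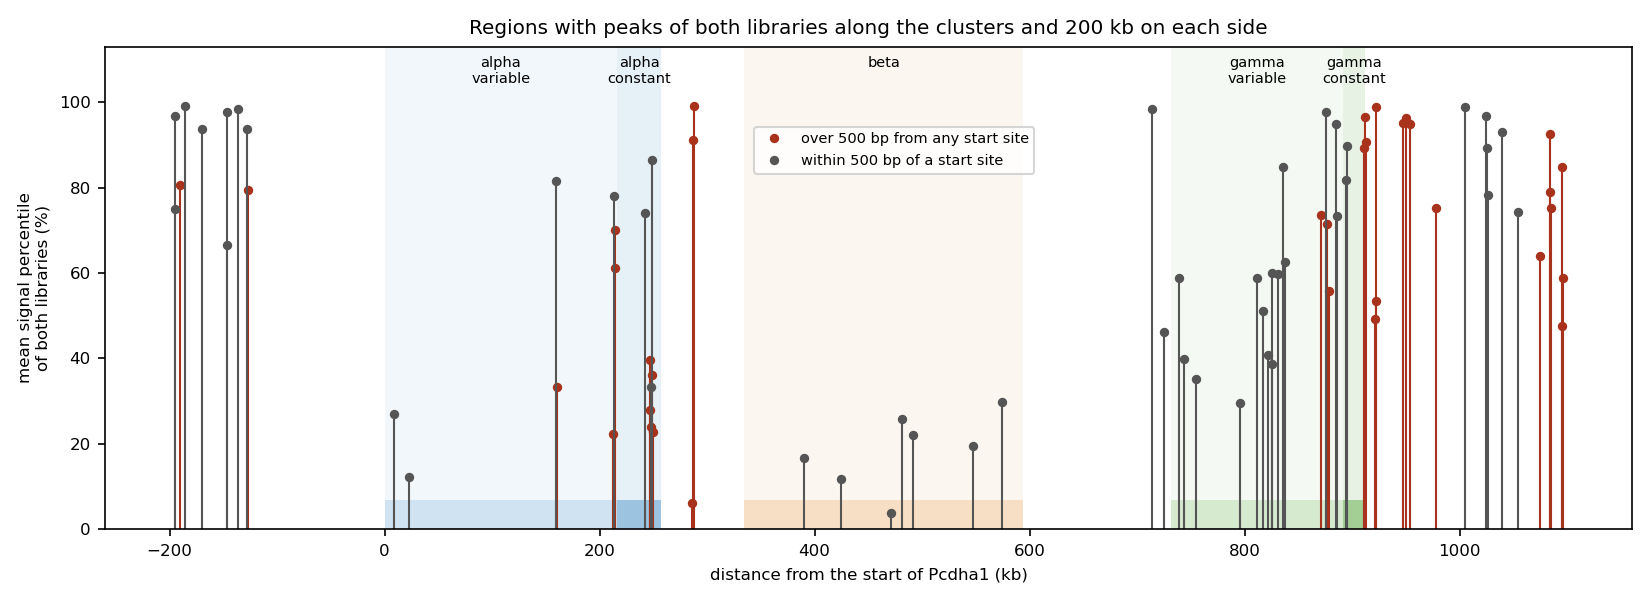
Regions with peaks of both libraries along the clusters and 200 kb on each side (horizontal axis, distance from the start of Pcdha1 in kb; vertical axis, mean of the signal percentiles of both libraries); red lines are over 500 bp from any annotated start, grey lines within 500 bp, and shading marks the variable and constant parts of the clusters. Beta regions reach no higher than 29.9 and the tallest distal lines stand in the gap after alpha and beyond the gamma constant exons.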

How the data were processed

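The data were 2 biological replicates of 1 group. Per the text deposited beside the lists, peaks and hotspots on mm10 were derived from the filtered alignment of each replicate apart; aligner, caller, versions and limits: not given in the sources used here. The authors deposited for each peak a signal (whole numbers, scale not stated), and for each hotspot the −log10 of a q-value and a display score, which was not used. Of 228440 and 122838 deposited peaks, 215 and 221 off chromosomes 1 to 19, X and Y and 22 and 24 repeated positions were left out.

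TSSs were the start of the protein-coding transcript with the longest coding sequence (GENCODE M21). A gene was called open when peaks of both libraries, overlapping by at least 1 bp, touched the window. Percentiles are middle ranks within a list. Motifs were searched in the RefSeq copy of mm10; no sequence of the locus is printed. Distal means over 500 bp from any annotated transcript start. Python 3.11.15, pandas 2.3.3, numpy 2.4.6 and scipy 1.17.1 were used, and the overlap code was tested on simulated intervals. No test was run. The members, lists and settings were chosen with earlier results of these data known. The text names every open member, every member with a peak in 1 library alone, the strongest and weakest open member of each cluster, the C-type genes and the comparison lists. It also names the gene with the nearest protein-coding start for the 5 strongest replicated distal regions.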

Additional observations from a re-analysis of the deposited data

How the results depend on the processing

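The count of 21 open members (3 alpha, 7 beta, 11 gamma) changed with the cut on signal. In the stronger 50% of each list (signals from 44 and 18) it was 9 in all, 0 in beta and 7 in gamma, while the share of all genes moved from 55.9% to 53.0%. With the replicate 1 list shortened to 122593 peaks it was 11 in all and 0 in beta, and 54.7% of all genes. Both settings remove weak peaks by construction. From a single library it ranged from 23 (replicate 2) to 51 (replicate 1) in all, 3 to 10 in alpha, 9 to 21 in beta and 11 to 20 in gamma, and the 81 replicated regions across clusters and flanks became 110 to 160. Without flanks there were 49 regions, and the stricter CTCF core moved from 2 promoter windows to 1. Windows of 100 bp (17) or 1000 bp (22), any annotated TSS (21), the gene's first base (21), hotspots (22) and reciprocal overlap of 50% (19) stayed within 1.5 times; all 21 kept their call in the wider window, and the narrow one lost Pcdhac2, Pcdhb8, Pcdhga12 and Pcdhgc4. No paired analysis was possible because there is 1 group. Depth is unknown, so a missing replicate 2 peak does not show a closed promoter.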
